A study of Trachemys scripta with 4 samples.

Results

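Immature Schwann cells and their crest-derived precursors were followed through 7 genes, EDNRB, GAP43, NCAM1, L1CAM, FABP7, FOXD3 and ITGA4, chosen by their symbols in the expression table. Of the 7 genes, 6 had a row among the 15289 genes of the table and all 6 passed the filter on low values, which asked for 1 TPM or more in 2 or more columns and kept 15100 genes. L1CAM was not analysed here. TPM is a measure of transcript abundance that divides the reads of a gene by its length and scales each column to the same total, so that levels of different genes can be set side by side. The samples were peripheral nerves, dissected as parts of the brachial and sacral plexus, from embryos of the turtle *Trachemys scripta* at stage 19 (st.19) and stage 21 (st.21). The eggs came from females injected with oxytocin and were kept at the same incubation temperature at both stages, and no other agent or allele is named for either group.

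The peripheral glia of vertebrates arise from the neural crest. Crest cells that settle on growing axons become Schwann cell precursors, these become immature Schwann cells, and immature Schwann cells then either myelinate an axon or remain unmyelinating. In mammals and birds, genes of the crest and of early glia are lost or retained to different degrees along this path. EDNRB, a receptor for endothelins, acts in crest cells and in melanocyte and enteric precursors and is also made by Schwann cells and blood vessels. GAP43, a protein of growth cones, is made by growing neurons as well as by immature and unmyelinating Schwann cells. NCAM1 and the alpha 4 integrin ITGA4 are adhesion molecules, FABP7 is a fatty acid binding protein of radial glia and early Schwann cells, and FOXD3 is a transcription factor that keeps crest cells undifferentiated and persists in glial precursors.

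Each stage was sequenced as 1 sample that is present as 2 columns, replicate 1 and replicate 2, and a stage of 1 sample is no measure of how embryos differ. Paired columns of one stage lay closer together than random sampling of reads allows for genes of 5 to 500 reads, with a mean chi-square of 0.433 (st.19) and 0.323 (st.21), where sampling alone gives about 1 for separate libraries. Abundant genes differed by more, with 1.26 and 1.57 for genes of 500 to 2000 reads and 3.94 and 2.96 above 2000 reads. The 6 genes had values from 0.15 (FABP7) to 1.80 (NCAM1) at st.19. No p-value is given for 1 sample a stage, and the intervals below cover counting error only. Between 4241655 and 4353821 reads fell on genes in a st.19 column, and between 2129599 and 2229177 in a st.21 column. A single rRNA gene, LOC117869916, took up 18.9% (replicate 1) and 44.2% (replicate 2) of all TPM at st.19 but at most 0.32% at st.21. Values of replicate 1 of st.19 therefore exceeded those of replicate 2 by 0.53 (log2) for the median gene, and this enters every level below. Fold changes are differences in mean log2 TPM, st.21 less st.19, so that a negative value means a lower level at st.21. The median fold change of all genes was 0.06 as deposited and −0.51 when the rRNA gene was left out of the total, so each gene is also given under other scalings. In a bulk sample, fewer cells of a type and less RNA per cell cannot be told apart.

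Within the 6 genes, EDNRB and GAP43 fell past 2-fold at st.21, FOXD3 rose past 2-fold, and FABP7, ITGA4 and NCAM1 stayed within 2-fold. Of all genes tested, 9.68% fell past 2-fold and 17.3% rose past it, against 2 and 1 of the 6 genes. The split of all genes depended on the scaling. With quantile normalization 13.7% rose and 12.1% fell past 2-fold. A TPM total of protein-coding genes alone gave 7.34% and 24.6%, and a total without the rRNA gene gave 7.09% and 27.1%. Under both of these totals 4 of the 6 genes were past 2-fold lower and 0 past 2-fold higher. The median log2 fold change of the 6 genes was −0.51, beside 0.06 for all genes, with 4 lower and 2 higher. The share of all genes on each side of 0 was not computed.

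**Figure D1:**
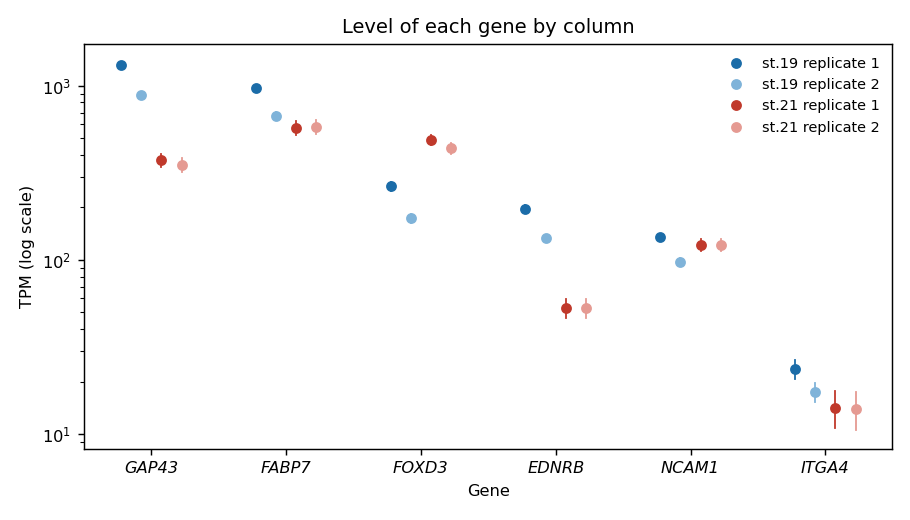
TPM of the 6 genes on a log axis in the 2 st.19 columns (blue) and the 2 st.21 columns (red), with vertical lines for the exact Poisson 95% interval of the reads, which covers counting error only. The st.21 points of GAP43 and EDNRB sit below both st.19 points, those of FOXD3 sit above them, and those of NCAM1 fall between them.

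EDNRB, which binds all endothelins, had the most negative fold change of the 6 genes as deposited, and GAP43 had the more negative one after quantile normalization (−2.36 against −1.98). It is on chromosome 1 from 266488233 to 266508700 of the CAS_Tse_1.0 assembly, has 2 annotated transcripts and was counted over 5591 nt. EDNRB had 2084 and 1940 reads at st.19, against 269 and 258 reads at st.21. These are levels of 197 and 133 TPM at st.19 and of 52.9 and 52.6 TPM at st.21. Both st.21 values lay far below both st.19 values, and EDNRB went from above 96% of all genes to above 79.8% of them. The log2 fold change of EDNRB was −1.62 (3.07-fold lower). It was −1.90 between the replicate 1 columns (95% interval −2.09 to −1.72) and −1.35 between the replicate 2 columns (−1.54 to −1.16). EDNRB fell past 2-fold under all 13 other settings, from −2.19 to −1.34. The 13 include no filter and at least 5 TPM, which cannot change the fold change of a single gene, here or below. The gene overlaps the lncRNA gene LOC117870873 over 156 nt in the annotation. LOC117870873 was not analysed here.

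The endothelin system had no direction that held across the scalings. Of 8 genes for endothelins, their receptors and converting enzymes, 1 was above a log2 fold change of 1 and 1 was below −1, with a median of 0.29 (0.49 without EDNRB) beside 0.06 for all genes. The median turned to −0.24 with the protein-coding total and to −0.28 without the rRNA gene. Under both, 3 of the 8 were past 2-fold in either direction. EDNRA, the receptor of smooth muscle and of ectomesenchyme, had 55.8 and 38.9 TPM at st.19 and 51.8 and 46.8 TPM at st.21. At st.19 the level of EDNRB was 3.53 and 3.43 times that of EDNRA in the same column, and at st.21 it was 1.02 and 1.13 times that of EDNRA. The pair thus went from a clear excess of EDNRB to nearly equal levels. The ligand genes were close to the limit of detection. EDN3, the ligand that EDNRB needs in crest derivatives of the mouse, had 11 and 12 reads at st.19 and 5 and 4 reads at st.21. Between the replicate 1 columns EDN3 had a log2 fold change of −0.09 and a counting interval of −1.96 to 1.56. EDN1, the main endothelin of vessels, had 7 reads in each st.19 column and 5 in each st.21 column. EDN2 was the gene above 1, at 4 and 2 reads in st.19 and 8 and 6 reads in st.21, a ratio of 4.14 between the replicate 1 columns with an interval from 1.11 to 18.8. ECE1, which cleaves endothelin precursors, had a log2 fold change of 0.49, and ECEL1, a relative of ECE1 made by neurons, had −0.88.

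GAP43 was the most abundant of the 6 genes at st.19. It lies on chromosome 1 from 148143485 to 148218528, with a counted length of 1516 nt. GAP43 had 3780 and 3501 reads at st.19 and 514 and 468 reads at st.21. Its level went from 1317 and 887 TPM to 372 and 351 TPM, without overlap of the stages. The log2 fold change of GAP43 was −1.58 (2.99-fold lower), with −1.83 between the replicate 1 columns (95% interval −1.96 to −1.69). GAP43 stayed above 97.6% of all genes in both st.21 columns, and it fell past 2-fold under all 13 other settings, from −2.36 to −1.30. Only 450 of the 15100 genes had a more negative fold change than GAP43, and 426 a more negative one than EDNRB.

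Most other growth cone genes lay on the same side of 0 as GAP43. Of 14 growth-associated genes, 12 were lower and 2 higher, 5 were below −1 and 0 above 1, with a median of −0.74 (−0.73 without GAP43). Past 2-fold in either direction were 9 of them with quantile normalization (median −1.31) and 8 with the protein-coding total or without the rRNA gene. Without replicate 1 of st.19 the number was 3 (median −0.48). CRMP1, which relays semaphorin signals in growth cones, dropped by 1.37 (log2), with 222 and 154 TPM at st.19 and 71.5 and 71.6 TPM at st.21. The microtubule regulator STMN2, a gene of growing neurons, fell by 1.17, from 1204 and 839 TPM to 451 and 443 TPM. At st.19 the level of GAP43 was 1.09 and 1.06 times that of STMN2, and at st.21 it was 0.82 and 0.79 times that of STMN2. GAP43 was lower at st.21 also against STMN2 in the same column, but this depended on the neuron gene chosen. GRIA2 (−2.10) fell more than GAP43, and SYT1 (−1.57) and DCX (−1.46) about as much. The other neuron markers fell less or rose, with 5 of the 15 higher at st.21. MARCKSL1, a membrane-bound substrate of protein kinase C, had a log2 fold change of 0.92 and was the highest of the list. The list of 15 neuron markers measured had a median of −0.62, with 6 genes below −1 and 0 above 1. This median came to −1.15 with the protein-coding total and to −1.19 without the rRNA gene. The summed level of the neuron markers was 7695 and 5311 TPM at st.19 and 5411 and 5503 TPM at st.21, and none was at 0 reads in either stage. Neuron RNA as a source of the GAP43 reads was not tested.

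**Figure D2:**
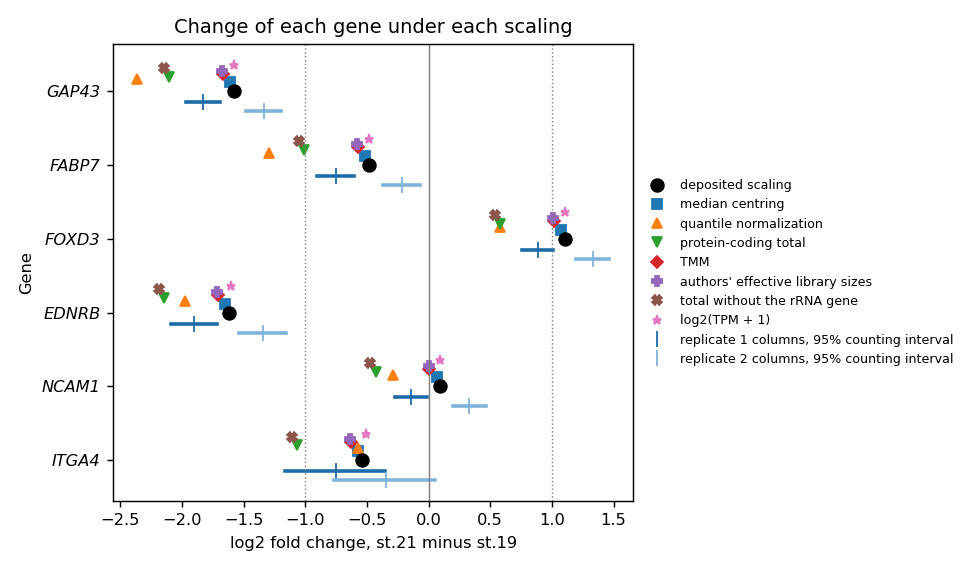
Log2 fold change at st.21 against st.19 for the 6 genes with the deposited scaling (black) and 7 other scalings or transformations (coloured symbols), with the replicate 1 and replicate 2 columns below each (vertical ticks, horizontal lines for the 95% counting interval). EDNRB and GAP43 lie below −1 and FOXD3 above 0 under every scaling drawn, while NCAM1 lies on both sides of 0.

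NCAM1, the neural cell adhesion molecule of axons, Schwann cells and embryonic muscle, showed no change that held across the settings. The gene is on chromosome 21 from 14501785 to 14744558, with 17 annotated transcripts, and was counted over 6131 nt. NCAM1 had 1559 and 1547 reads at st.19 and 683 and 658 reads at st.21, or 134 and 97.0 TPM and then 122 TPM in both columns. As deposited, the st.21 values lay between the st.19 values. The log2 fold change of NCAM1 was 0.10. Between the replicate 1 columns it was −0.14 (95% interval −0.27 to −0.01) and between the replicate 2 columns 0.33 (0.20 to 0.46). These opposite signs belong to the deposited scaling. There the median gene was 0.53 (log2) higher in replicate 1 than in replicate 2 of st.19, with the unequal share of the rRNA gene. The protein-coding total gave −0.43, the total without the rRNA gene gave −0.47 and TMM scaling gave 0.01.

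Most relatives of NCAM1 and L1CAM were lower at st.21. Of 15 adhesion molecules of the NCAM, L1 and contactin families and related proteins, 7 were below −1 and 1 was above 1, with a median of −0.92 (−1.02 without NCAM1). The median came to −1.49 without the rRNA gene in the total. NCAM2, the closest relative of NCAM1, dropped by 1.13 (log2), from 40.3 and 28.4 TPM to 15.6 and 15.4 TPM. CHL1, a close relative of L1CAM on axons and glia, fell by 1.67, from 38.6 and 27.0 TPM to 10.1 and 10.2 TPM. The contactins, axonal partners of L1-type proteins, were lower to different degrees, with CNTN1 at −0.88 and CNTN2 at −1.32. CNTN5 fell from 92.3 and 64.6 TPM to 16.4 TPM in both st.21 columns (log2 fold change −2.23), and CNTN4 from 50.5 and 35.4 TPM to 9.98 and 10.4 TPM (−2.06). CNTN6 had 16 and 17 reads at st.19 and 0 in both st.21 columns, which makes it at least 2.24-fold lower against a floor of 3 reads per library. MCAM, an adhesion molecule of vessels and muscle as well as of Schwann cells, was the 1 gene above 1, at 1.34. The enzymes ST8SIA2 and ST8SIA4, which add polysialic acid to NCAM1, had log2 fold changes of −0.67 and −0.96, the latter from 60 and 56 reads to 13 and 10 reads. ANK3, which anchors L1-type proteins at nodes and axon initial segments, fell by 1.29, while the ankyrins ANK2 and ANK1 had −0.71 and 0.65. Of these 5 enzyme and ankyrin genes, 4 were lower and 1 higher, with 1 below −1 and a median of −0.71.
In total, 15 skeletal muscle markers were measured, and all 15 rose past 2-fold, with a summed level of 126 and 82.2 TPM at st.19 and of 3061 and 3047 TPM at st.21. Their part in the level of NCAM1 was not tested.

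ITGA4, the alpha 4 integrin subunit through which crest cells and leukocytes bind fibronectin, was the least abundant of the 6 genes. It is on chromosome 11 from 44104434 to 44160801 and was counted over 5333 nt. ITGA4 had 237 and 241 reads at st.19 and 68 and 64 reads at st.21, or 23.7 and 17.5 TPM and then 14.2 and 13.9 TPM. Both st.21 values were below both st.19 values, but the distance was small as deposited. The log2 fold change was −0.54. Between the replicate 1 columns it was −0.75 (95% interval −1.16 to −0.36), and between the replicate 2 columns −0.35, with an interval from −0.77 to 0.06 that included 0. The direction of ITGA4 held in both pairs of columns, and its size was poorly fixed by the few reads and depended on the scaling. ITGA4 was lower under all 13 other settings and past 2-fold under 2 of them. It came to −1.07 with the protein-coding total and to −1.11 without the rRNA gene.
The genes around ITGA4 had mixed directions. Of 9 alpha 4 integrin genes, partners, relatives and ligands measured, ITGA4 included, 4 were above 1 and 0 below −1, with a median of 0.58 (1.02 without ITGA4). The median came to 0.05 with the protein-coding total and to 0.01 without the rRNA gene. Under both, 4 genes were past 2-fold in either direction, with ITGA4 among them on the lower side. They are thus not the same 4 genes as those above 1 as deposited. ITGB1, the beta subunit that pairs with ITGA4 on crest cells, had a log2 fold change of −0.21, at 433 and 304 TPM and then 311 and 316 TPM. FN1, the fibronectin ligand, rose from 122 and 86.4 TPM to 358 and 362 TPM (1.81), and ITGA5, the other fibronectin receptor of the crest, rose from 38.3 and 24.9 TPM to 140.4 and 137 TPM (2.17). ITGB7, the leukocyte partner of ITGA4, had 2 and 1 reads at st.19 and 8 and 7 reads at st.21, a ratio of 8.29 between the replicate 1 columns with an interval from 1.65 to 80.1. VCAM1 was not analysed here. The 7 leukocyte markers measured had a summed level of 48.2 and 33.8 TPM at st.19 and of 122 and 121 TPM at st.21. As deposited, all 7 were higher at st.21, with LCP1 at only 0.07, and 4 of them were past 2-fold. With the protein-coding total 3 were past 2-fold. Their median was 1.19 as deposited, 0.66 with the protein-coding total and 0.62 without the rRNA gene. MPEG1, LAPTM5, IRF8 and SPI1 had at most 20 reads in a column, and SPI1 was at 0 reads in both st.19 columns. The part of the leukocyte markers in the level of ITGA4 was not tested.

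FABP7, the brain lipid-binding protein, was the most abundant of the 6 genes at st.21 and ranked after GAP43 at st.19. It is on chromosome 3 from 112865918 to 112870441, with a counted length of 901 nt. FABP7 had 1644 and 1576 reads at st.19 and 471 and 458 reads at st.21. Its level went from 965 and 672 TPM to 573 and 579 TPM, with both st.21 columns below both st.19 columns. The log2 fold change of FABP7 was −0.48, with −0.75 between the replicate 1 columns (95% interval −0.90 to −0.60) and −0.22 between the replicate 2 columns (−0.37 to −0.07). It was lower under all 13 other settings and past 2-fold under 3 of them, at −1.29 after quantile normalization and at −1.01 and −1.05 with the totals of protein-coding genes and without the rRNA gene. Of 13 named fatty acid and retinoid binding proteins, 5 were measured. FABP3, the heart-type protein, had 449.8 and 316 TPM at st.19 and 289 and 305.5 TPM at st.21, a log2 fold change of −0.34. CRABP2, a carrier of retinoic acid, was the 1 gene of the 5 above 1, at 820 and 512 TPM and then 2189 and 2086 TPM (1.72), while its relative CRABP1 had −0.83. With the protein-coding total or without the rRNA gene, 3 of the 5 were past 2-fold in either direction, FABP7 among them on the lower side.

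FOXD3 was the 1 gene of the 6 that rose past 2-fold as deposited. It is on chromosome 8 from 91805783 to 91807997, and its counted length of 2215 nt equals its span, so that no intron is annotated. FOXD3 had 1107 and 1000 reads at st.19 and 986 and 851 reads at st.21, and the st.21 columns were the shallower ones. The level of FOXD3 went from 264 and 174 TPM to 487 and 437 TPM, without overlap of the stages. The log2 fold change was 1.11 (2.15-fold higher), with 0.88 between the replicate 1 columns (95% interval 0.76 to 1.01) and 1.33 between the replicate 2 columns (1.20 to 1.47). It was higher under all 13 other settings but past 2-fold in only 9 of them. The paper's own FPKM values for FOXD3, obtained by a BLAST against the genome, were close at both stages and showed no such rise. FOXD3 came to 0.58 both after quantile normalization and for the protein-coding total, to 0.54 for the total without the rRNA gene and to 0.80 without replicate 2 of st.19. The 2 st.21 columns of FOXD3 differed by more than those of the other 5 genes, with a chi-square of 4.70 against at most 0.56, and 1.57 on average over genes with 500 to 2000 reads.

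Transcription factors of the crest and of early glia moved in both directions. Of 19 such factors measured, 4 were above 1 and 1 below −1, with a median of 0.51 (0.39 without FOXD3). The median came to −0.05 without the rRNA gene in the total, where that of all genes was −0.51. Of these factors 5 were past 2-fold in either direction as deposited. The number was 3 with quantile normalization or without replicate 2 of st.19, and 9 without replicate 1 of st.19. SOX10, which specifies and maintains peripheral glia, had 217 and 146 TPM at st.19 and 329 and 333 TPM at st.21, a log2 fold change of 0.90. The paper's own FPKM values for SOX10 showed no such rise. SOX8, a close relative of SOX10, had 0.91. SOX2, a factor of immature Schwann cells, had 28.7 and 19.5 TPM and then 25.3 and 24.8 TPM (0.08). TFAP2B fell from 31.0 and 21.5 TPM to 6.14 and 6.80 TPM, past 2-fold lower, and TFAP2A, a marker of Schwann cell precursors in the mouse, had −0.66. SNAI2, which drives crest cells out of the neural tube in the chick, rose from 4.62 and 3.21 TPM to 16.1 and 19.3 TPM (2.19). PAX7 rose most of the list, from 1.74 and 1.32 TPM to 16.3 and 15.8 TPM (3.41), and it also stands in the list of skeletal muscle markers as a gene of satellite cells.

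**Figure D3:**
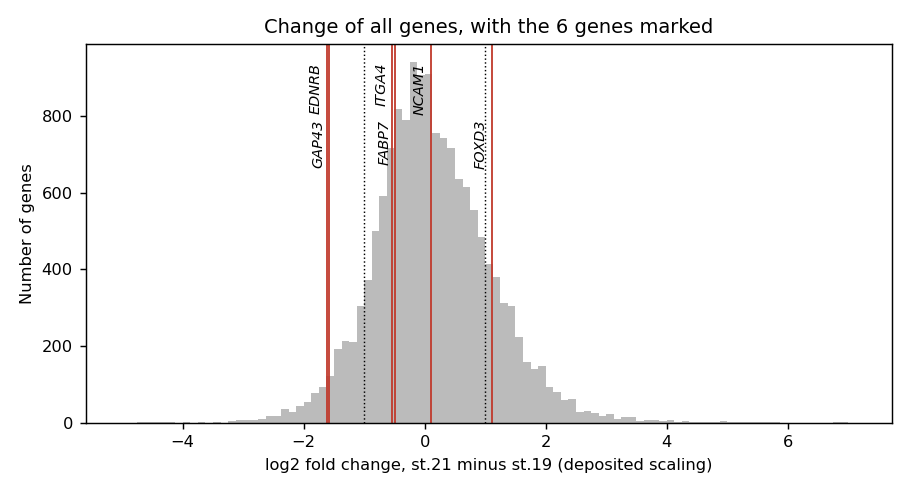
Number of genes by log2 fold change at st.21 against st.19 over the 15100 genes tested (grey bars), with the 6 genes as red lines and a change of 2-fold as dotted lines. EDNRB and GAP43 lie in the lower tail, FABP7 and ITGA4 at percentiles 24.7 and 22.3, NCAM1 near the middle at 51.6 and FOXD3 at percentile 85.0.

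The order of the levels of the 6 genes differed between the stages and was the same in the 2 columns of a stage. At st.19 it was GAP43, FABP7, FOXD3, EDNRB, NCAM1 and ITGA4. At st.21 it was FABP7, FOXD3, GAP43, NCAM1, EDNRB and ITGA4. In all 4 columns each gene differed from the next in the order beyond its 95% counting interval, with 0 of 20 neighbouring intervals overlapping. Ratios of TPM within a column do not depend on the column's total. GAP43 had 4.98 and 5.11 times the level of FOXD3 at st.19 and 0.76 and 0.80 times its level at st.21. For FOXD3 against EDNRB the ratio was 1.34 and 1.30 at st.19 and 9.22 and 8.30 at st.21. Both ratios set FOXD3, which rose past 2-fold, against a gene that fell past it. The columns of a stage were treated as 1 sample, so their likeness is no gauge for the difference between the stages.

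Set against SOX10 in the same column, 5 of the 6 genes had a lower level at st.21. SOX10 itself rose by 0.90 (log2) as deposited, beside 0.06 for the median of all genes. The median gene, and so most genes, were thus also lower against SOX10. As deposited, 17.3% of all genes rose past 2-fold and so were higher against SOX10. The full share of genes that were lower was not computed, and the count of 5 of 6 is not read as a trait of these genes. SOX10 was taken as the reference after its values were seen, and another reference moves all changes by the same amount. The paper's own FPKM values for SOX10, from its BLAST, were not higher at st.21, unlike the deposited TPM used here. EDNRB had 0.91 TPM per TPM of SOX10 in both st.19 columns and 0.16 in both st.21 columns, 5.72-fold lower. GAP43 had 6.08 and 6.06 TPM per TPM of SOX10 and then 1.13 and 1.05, 5.57-fold lower. FABP7 went from 4.45 and 4.60 to 1.74 and 1.74, ITGA4 from 0.11 and 0.12 to 0.04 in both columns, and NCAM1 from 0.62 and 0.66 to 0.37 and 0.37. The change of NCAM1 against SOX10 was −0.80 on the log2 scale, and between the replicate 1 columns −0.75 (95% interval −0.92 to −0.57). As deposited NCAM1 lay 0.04 above the median of all genes, so its change against SOX10 was about that of the median gene. FOXD3 alone of the 6 genes had a higher ratio, 1.22 and 1.19 at st.19 and 1.48 and 1.31 at st.21, a log2 change of 0.21.
Set against SOX10 in the same way, 4 other Schwann cell genes had changes between those of EDNRB and FOXD3. They were chosen for their role after their values were seen. The Schwann cell markers MBP and PMP22, which rose by 0.61 and 0.75 as deposited, were not set against SOX10. ERBB3, the neuregulin receptor of the Schwann cell lineage, had 0.89 and 0.90 TPM per TPM of SOX10 at st.19 and 0.90 and 0.88 at st.21. The log2 change of ERBB3 against SOX10 was −0.01, with an interval between the replicate 1 columns of −0.12 to 0.17. S100B, which appears in immature Schwann cells of the mouse, and CDH19, a cadherin of Schwann cell precursors, were lower against SOX10 at st.21, by log2 changes of −1.30 and −1.22. NGFR, the low-affinity neurotrophin receptor of immature Schwann cells, had −0.60.

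**Figure D4:**
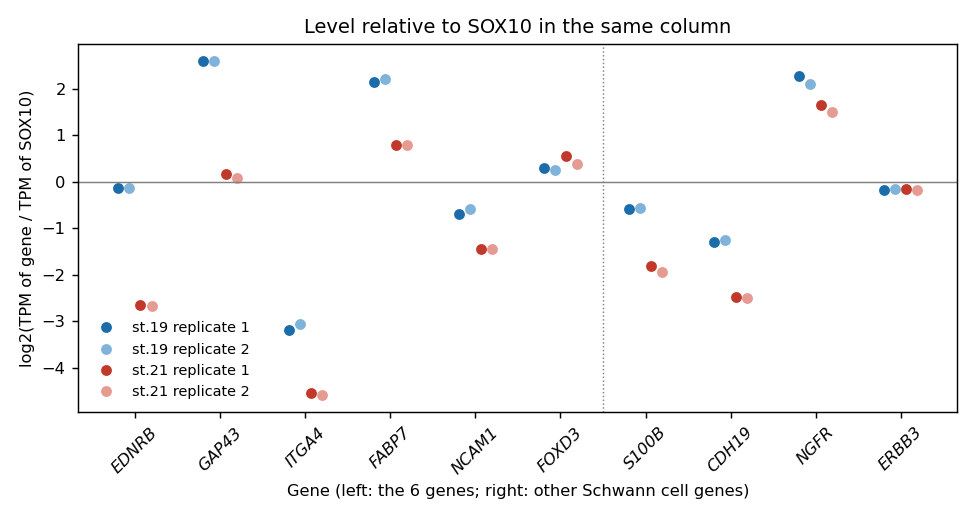
Log2 ratio of the TPM of each gene to that of SOX10 in the same column for the 2 st.19 columns (blue) and the 2 st.21 columns (red), with the 6 genes to the left of the dotted line and 4 other Schwann cell genes to its right. EDNRB and GAP43 drop by 2.52 and 2.48, ERBB3 changes by −0.01, and FOXD3 lies higher at st.21.

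The wider list of genes of precursors and immature Schwann cells had no common direction. Of 17 such genes, none of which is among the 6, 2 were above 1 and 0 below −1, with 10 higher and 7 lower and a median of 0.08. The median turned to −0.49 without the rRNA gene in the total, to −0.38 with quantile normalization and to 0.36 without replicate 1 of st.19. Past 2-fold in either direction were 4 genes without the rRNA gene and 4 without replicate 1 of st.19. These settings moved the list in opposite directions, so the counts do not stand for the same genes. POU3F1, a factor of promyelinating Schwann cells, and GFAP, a filament gene of unmyelinating Schwann cells, were the genes above 1, at 1.94 and 1.52. The paper's own FPKM values were higher at st.21 for GFAP. For POU3F1, which the paper calls SCIP, they were below 1 at both stages, and no change can be read from them. GFAP had 40.7 and 27.5 TPM at st.19 and 95.1 and 97.4 TPM at st.21. JUN, which holds Schwann cells in an immature state in the mouse, had 311 and 213 TPM and then 205 and 200.2 TPM (−0.35), and CDH2, the N-cadherin of precursors, had −0.58.

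Schwann cell markers were well represented in all columns. A set of 6 Schwann cell markers had a summed level of 1191 and 825 TPM at st.19 and of 1523 and 1518 TPM at st.21, and none was at 0 reads. The median log2 fold change of these markers was 0.68 as deposited, 0.15 with the protein-coding total and 0.11 without the rRNA gene. Markers of other tissues were also present, at levels that differed between the stages. The summed level of 11 fibroblast markers was 6326 and 4303 TPM at st.19 and 28440 and 28123 TPM at st.21. Most of this sum came from the collagen genes COL1A1, COL1A2 and COL3A1, which had 13897, 5431 and 7596 TPM in replicate 1 of st.21. The median log2 fold change of the fibroblast markers was 1.17, and 0.60 without the rRNA gene in the total, with PDGFRA, a receptor of fibroblasts, at 0.14. The summed level of 12 markers of endothelial cells, which can make EDNRB, was 125 and 88.9 TPM and then 227 and 231 TPM. Their median log2 fold change was 1.02, with 0.49 for the protein-coding total and 0.45 without the rRNA gene. Past 2-fold were 6 of them as deposited and 2 with the protein-coding total. The 5 melanocyte markers measured, of a lineage whose precursors make EDNRB, had 57.6 and 39.2 TPM and then 159 and 148 TPM, with 4 genes above 1 and 1 below −1. PMEL alone made up 136 and 125 TPM of the st.21 sums, and TYRP1 and DCT, also above 1, had at most 14 reads in a column. Only 2 of the 5 were past 2-fold in either direction with the protein-coding total or without the rRNA gene. The part of these tissues in the changes of the 6 genes was not tested.

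**Figure D5:**
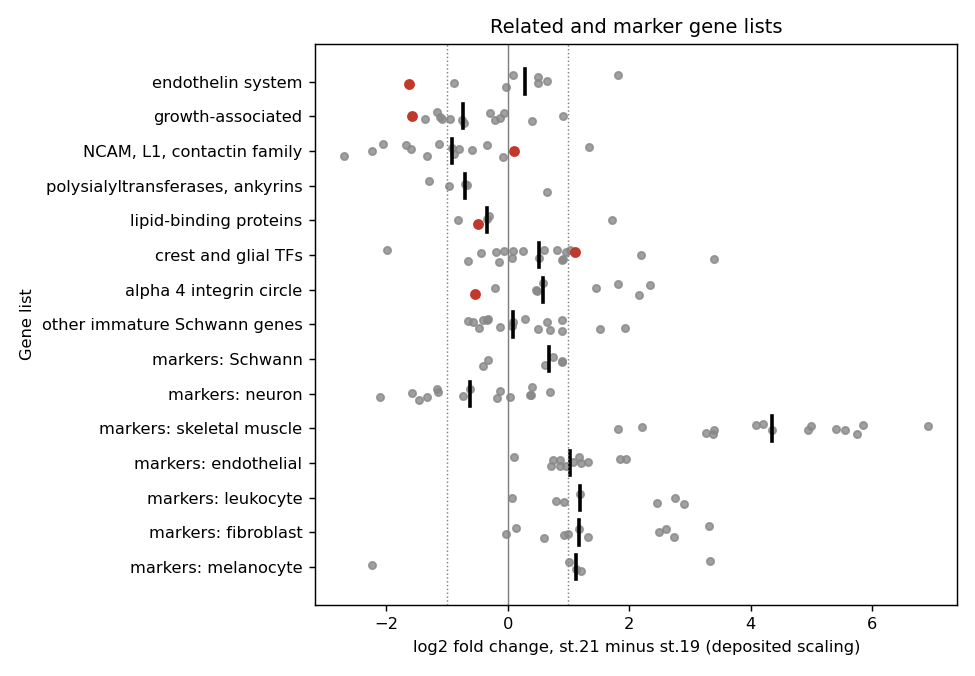
Log2 fold change at st.21 against st.19 for each measured gene (points) of the related and marker lists, with the 6 genes in red and the median of each list as a black bar. The median is −0.74 for growth-associated genes and −0.92 for the adhesion families, 0.51 for crest and glial transcription factors, and 4.35 for skeletal muscle markers.

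The genes with the most similar levels were taken by the root mean square difference of log2 TPM over the 4 columns, among 12083 other genes with a symbol. EDNRB was closest to THBS1, a matrix glycoprotein, at a difference of 0.03, and then to ELAVL2, a neuronal RNA-binding protein, at 0.09. GAP43 was closest to STMN2 and STMN1, at 0.23 and 0.32. FOXD3 was closest to ELN, the gene of elastin, at 0.05, and FABP7 to YWHAZ, a 14-3-3 protein, at 0.14. ITGA4 was closest to EEA1, an endosome protein, at 0.02. These are likenesses of 4 values, treated as coming from 2 samples.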

How the data were processed

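RNA of nerve samples was compared between st.19 and st.21, with groups and replicate numbers from the sample labels. For alignment the authors used Hisat2 and single-end files on the *T. scripta elegans* assembly CAS_Tse_1.0. Counting was done with featureCounts and a CPM filter with edgeR 3.42.4 (per the labels). The values they deposited are log2 TPM, with a prior count added before the logarithm. The strand setting of the counting is not given in the sources used here. Gene coordinates and overlaps come from RefSeq's gene table for that assembly, which held 15266 of the 15289 symbols.

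Reads were recovered by finding, for each gene, the length up to 150000 nt at which the values of all 4 columns are whole reads to within 0.0001 after subtraction of the prior count. The starting point was 3626 gene lengths in the study's table of genes, and 100% of the genes gave 1 such length. The procedure was tested on simulated data. Prior counts were 2.861 and 2.729 at st.19 and 1.231 and 1.179 at st.21, and they shrink the fold change of a gene with few reads.

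Fold changes were taken to compare 1 sample with 1 sample, so genes were called past 2-fold (a log2 fold change over 1 in size) and no test was run. Intervals (95%) are exact binomial for a fold between columns, exact Poisson for a level, and a normal approximation on the log scale for a change against SOX10. PCR duplicates are not removed, so they cover counting error only. The 6 genes and all lists were chosen with earlier results of these data known. Named are the 6 genes, up to 3 of the largest changes of each related list, and direct partners of the 6 genes. Of the nearest genes, 1 or 2 are named for each of the 6 genes except NCAM1. Some genes that this rule or the lists would take in are not reported here, and list counts and sums leave them out. Other genes are named for their role and were chosen after their values were seen. The alternatives were median centring, quantile normalization, a protein-coding total, TMM, log2(TPM + 1), no filter, at least 5 TPM, and leaving out each column. The authors' effective library sizes, recovered from the prior counts, and a total without the rRNA gene were added after seeing the data. Computations ran in Python 3.11.15, using scipy 1.17.1 for intervals, matplotlib 3.10.9 for plots, and pandas 2.3.3 on numpy 2.4.6.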

Additional observations from a re-analysis of the deposited data

How the results depend on the processing

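The median log2 fold change of the 6 genes, −0.51 as deposited, was negative under all settings tried. Quantile normalization gave −0.93, the protein-coding total −1.04, and a total without the rRNA gene, added once the data had been seen, −1.08. With 1 column left out it ranged from −0.75 to −0.27, the lowest without replicate 2 and the highest without replicate 1 of st.19. The number of genes past 2-fold was 3 as deposited and 2 to 3 with 1 column left out, with FOXD3 at 0.80 without replicate 2 of st.19. The share of all genes past 2-fold was not computed with a column left out. The number among the 6 genes was 4 with the protein-coding total and without the rRNA gene. There ITGA4 (−1.07 and −1.11) and FABP7 joined EDNRB and GAP43, and FOXD3 dropped out. EDNRB, GAP43, FABP7 and ITGA4 were lower and FOXD3 higher under all 13 settings, and NCAM1 kept its sign in 9 of 13, ranging from −0.47 to 0.33. Among the 13, no filter and at least 5 TPM leave the value of each of the 6 genes as deposited. No paired analysis was possible because the results come from no test. Depth limits EDN1, EDN2, EDN3, ITGB7 and CNTN6, which have fewer than 20 reads in each column.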

Other observations

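Among the melanocyte markers, KIT, a receptor of melanocyte and germ cell precursors and of some sensory neurons, had 31.5 and 22.6 TPM at st.19 and 5.95 and 5.33 TPM at st.21, from 241 and 238 reads to 21 and 18 reads. Its log2 fold change of −2.24 was more negative than that of EDNRB. PMEL, a protein of melanosomes, went the other way, from 16.6 and 10.1 TPM to 136 and 125 TPM (3.34). MITF, the master regulator of melanocytes, had 1.21 and DCT, an enzyme of melanin synthesis, 2 reads in each st.19 column and 3 in each st.21 column.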
